A study of Mus musculus with 24 samples.

Results

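Hippocampal RNA of *Tsc1-Cre+* mice taken on day 8, around seizure onset, was compared with that of *Tsc1-Cre+* mice taken on day 6. The mice were chosen by the time in their sample title, which gave 4 mice on day 8 and 4 on day 6, or 8 of the 24 mice sequenced. The study followed epileptogenesis after *Tsc1* loss, with RNA of 4 mice on each of days 4, 6, 8 and 13, of 4 *Tsc1-Cre-* controls and of 4 *Tsc1-Cre+* mice given rapamycin (10 mg/kg daily from day 4) and taken on day 13. All 8 mice compared were adults with floxed *Tsc1* alleles (Tsc1f/f) and the transgene Tg(Camk2a-CreERT2+), all received tamoxifen and none received another drug. The groups differed in the day of death counted from the start of tamoxifen, day 6 or day 8. The 4 control mice, used here as background only, had floxed *Tsc1* and tamoxifen but no Cre and were taken on day 8. The *Camk2a* promoter limits Cre to neurons that use it, whereas the RNA came from whole hippocampus, so every cell type of the tissue, with or without the deletion, entered each value. All 24 mice received tamoxifen. Whether a given day 8 mouse had a seizure before its RNA was taken is not given in the sources used here.

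TSC1 and TSC2 form a complex that restrains mTORC1, a kinase complex that drives protein, lipid and nucleotide synthesis when amino acids and growth factors are present. ATF4 is a transcription factor of the response to amino acid shortage and other stress, is also increased through mTORC1, and switches on amino acid transporters, enzymes of serine, asparagine, proline and one-carbon metabolism and the synthetases that load tRNAs. In epilepsy models, the hippocampus is also known for bursts of immediate early genes in firing neurons, for reactive astrocytes with more GFAP, and for altered expression in dentate granule cells.

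On day 8, 4 lists of genes of the ATF4 and amino acid response were higher than on day 6 in all 4 mice by list mean, and 49 of their 81 tested genes lay above day 6 in every mouse (5.81% of all genes). These lists held 25 of the 45 genes called higher by edgeR (0.181% of all genes tested). Of these 25, the transporter gene *Slc7a3*, the glutathione-degrading enzyme *Chac1* and the one-carbon enzyme *Mthfd2* had the largest log2 fold changes among genes with a mean of at least 1 CPM (log2 fold changes 2.47, 1.72 and 1.46, SE 0.32, 0.24 and 0.17, n = 4 mice a group). Genes of sterol synthesis, lysosomes and oxidative phosphorylation lay slightly above day 6 in all 4 mice by list mean, with 0 of 29, 26 and 83 tested genes called by edgeR (0.181% of all genes were called higher) and 0, 1 and 1 by DESeq2 (1.05%). Day 8 mice A and C were farthest from day 6. List means of reactive astrocyte and cell cycle genes were highest in these 2 mice, the latter above the day 6 range in all 4, with 0 of 26 and 0 of 24 genes called by edgeR and 3 and 2 by DESeq2. Mouse B was intermediate and mouse D nearest to day 6, and D was also the 1 day 8 mouse without *Xist* and with high *Ttr*, like 3 of the 4 day 6 mice. The 12 genes called lower (0.0482% of those tested) included *Hap1* and *Crym*. These calls depended on the mice and the model. With any 1 day 6 mouse or day 8 mouse A left out, or with *Xist* or *Ttr* as a covariate, edgeR called 0 genes.

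Total counts per mouse, the reads assigned to genes, were 51363380, 62429111, 57830100 and 52648556 for day 6 mice A, B, C and D, and 58164907, 59124484, 53564370 and 54511694 for day 8 mice A, B, C and D. Depth therefore overlapped between the groups. Values of single genes are in CPM, counts scaled to the depth of each mouse and, by TMM, across all 24 mice, on the assumption that most genes do not differ. Differences are given as log2 fold changes of day 8 over day 6.

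The deleted gene, *Tsc1*, was at 73.6, 73.9, 69.7 and 72.9 CPM in day 6 mice A to D and at 68.2, 76.4, 69.4 and 76.0 CPM in day 8 mice A to D. All 8 values lay below those of the 4 controls, 103 to 109 CPM, and the day 6 and day 8 values overlapped (log2 fold change -0.013, SE 0.054, edgeR adjusted p = 0.929). *Tsc1* thus did not differ between the days beyond the spread between mice.

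Defining markers of the hippocampus and its cells were present in all 8 mice. For excitatory neurons, *Camk2a* ranged from 1294 to 2236 CPM, *Slc17a7*, a vesicular glutamate transporter, from 766 to 1004 CPM, and *Prox1*, which marks the dentate gyrus, from 75.6 to 130.1 CPM. *Gad1* of interneurons, *Aqp4* of astrocytes, *P2ry12* of microglia and *Cldn5* of endothelium had lowest values of 189.6, 106, 26.4 and 17.4 CPM. The striatum markers *Drd2*, *Adora2a* and *Gpr6* were near 0, with *Drd2* at most at 1.52 CPM. *Drd1*, another dopamine receptor gene, chosen after its values were seen, was not. It was at 6.51, 7.07, 6.36 and 5.55 CPM on day 6 and at 15.2, 4.93, 25.8 and 8.44 CPM on day 8. The habenula marker *Gpr151* was at 2.75, 2.54, 3.27 and 3.96 CPM on day 6 and at 3.96, 3.35, 16.8 and 3.59 CPM on day 8, and the thalamus marker *Tnnt1* at 0.510, 0.408, 0.521 and 0.712 CPM on day 6 and 0.355, 0.761, 5.91 and 0.677 CPM on day 8. Day 8 mouse C stood above the other 7 mice in both.

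Sex and choroid plexus RNA did not balance between the groups. *Xist*, expressed from the inactive X chromosome of females, was at 902, 2.42, 2.87 and 2.12 CPM in day 6 mice A to D and at 837, 727, 848 and 3.18 CPM in day 8 mice A to D, and *Ddx3y* of the Y chromosome was at 0.0392, 59.2, 61.5 and 55.8 and 0, 0, 0 and 63.4 CPM. Day 6 mouse A and day 8 mice A, B and C were thus female by these genes, and the other 4 mice were male. *Ttr*, the most abundant gene of the choroid plexus, was at 5.81, 1017, 695 and 653 CPM on day 6 and at 9.06, 6.52, 19.5 and 582 CPM on day 8, low in the same 4 mice that had *Xist*. Over the 18 genes of the choroid plexus list, none of them at 0 in all mice, summed CPM were 219, 1509, 1099 and 1073 on day 6 and 172, 173, 229 and 989.8 on day 8. Sex and choroid plexus RNA divided these 8 mice in the same way, so they cannot be told apart here. The deposited files carry a number per mouse. On day 6 and on day 8 its first part was the same for A and B and for C and D, but no day 6 mouse shared it with a day 8 mouse. The labels do not say what it marks, and if it marks a batch, batch and day cannot be told apart. The controls carry the same first numbers as the day 8 mice, A and B 1 and C and D another.

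Between the days, edgeR's quasi-likelihood test called 57 of 24871 genes (0.229%) with log2 fold changes beyond 0.5 in either direction and adjusted p-values under 0.05, 45 of them higher on day 8 (0.181%) and 12 lower (0.0482%). DESeq2 on the same mice called 310 of 18524 genes (1.67%), 195 higher (1.05%) and 115 lower (0.621%). At an unadjusted p under 0.05 edgeR had 4264 genes (17.1%), and 104 genes had an adjusted p under 0.05 at any fold. Of the 57 called genes, 47 were protein-coding, 3 were long intergenic RNAs and 1 was a snoRNA. In each of the 57, all 4 day 8 mice lay on 1 side of all 4 day 6 mice, and across all tested genes this was so for 1444 genes higher on day 8 (5.81%) and 1118 lower (4.50%).

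The number of calls changed with the mice included. Without any 1 of the 4 day 6 mice, or without day 8 mouse A, edgeR called 0 genes, with 3511, 3443, 3294, 3173 and 3282 genes at an unadjusted p under 0.05 when day 6 A, B, C, D or day 8 A was left out. Without day 8 mouse D, the mouse nearest to day 6, 482 genes were called (257 higher and 225 lower), and without mouse B 164. Without mouse C there were 55 (45 higher and 10 lower). With *Xist* or *Ttr* as a covariate, the latter added after seeing the data, edgeR called 0 genes, with 2437 and 2814 at an unadjusted p under 0.05, while DESeq2 without a covariate gave the 310 above. All 57 called genes kept an unadjusted p under 0.05 and their sign in each of these fits. Their groups do not overlap, and the genes were called for a small p in these mice. The sign, and largely the unadjusted p, in fits that leave mice out thus follow from how the genes were chosen.

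**Figure D1:**
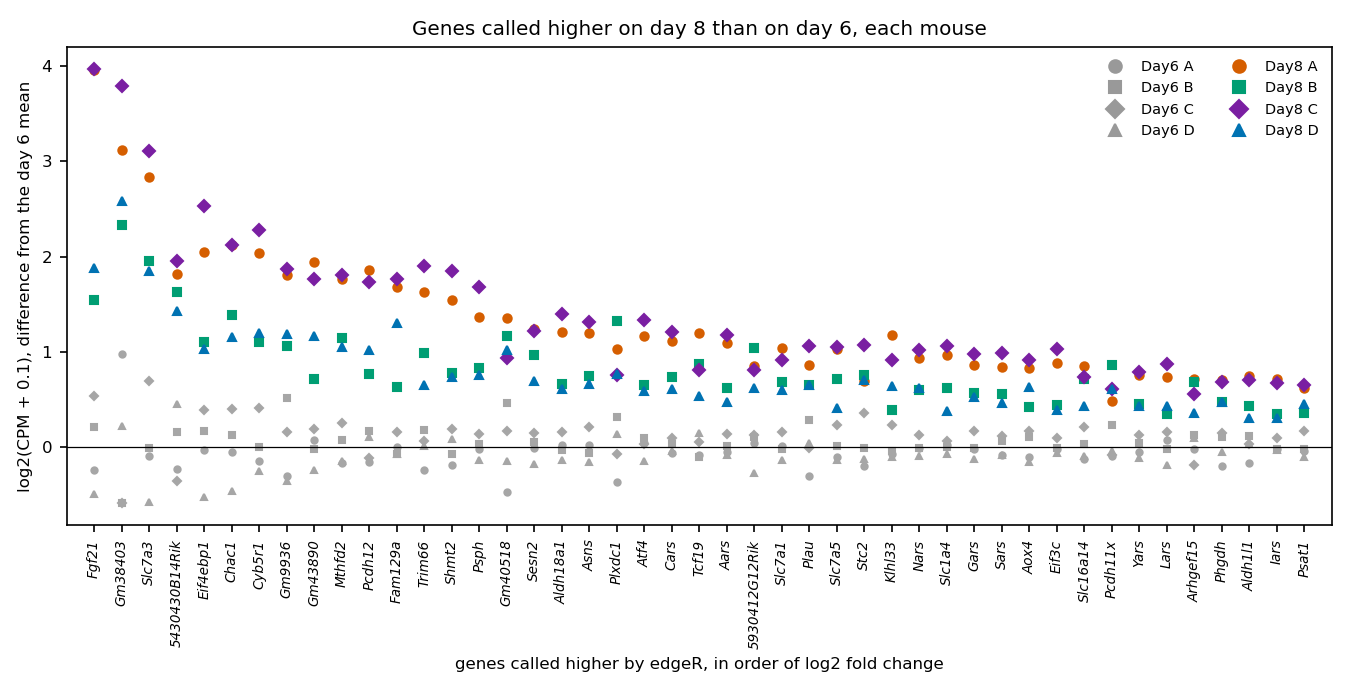
Each of the 45 genes called higher by edgeR is 1 column, in order of log2 fold change, and the y axis gives log2(CPM + 0.1) of each mouse minus the mean of the 4 day 6 mice. Grey symbols are day 6 mice and coloured symbols day 8 mice, and for most of these genes the circles and diamonds of day 8 A and C lie above the squares and triangles of B and D.

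Of the 81 genes tested on 4 lists of the amino acid response, 25 rose and 0 fell by edgeR (55 had an unadjusted p under 0.05, against 17.1% of all genes, and DESeq2 called 33 higher, against 1.05%, and 0 lower). Of all genes, 0.181% were called higher. All 4 day 8 mice lay above all day 6 mice in 49 of the 81 (5.81% of all genes) and below in 2 (4.50%), both of them transporters. Called genes were 5 of 19 on the list of ATF4 and its regulators, 4 of 21 amino acid transporters, 8 of 21 genes of amino acid and one-carbon synthesis and 8 of 20 synthetases. Median log2 fold changes were 0.79, 0.19, 0.47 and 0.50, beside 0.00079 over all tested genes.

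*Atf4* itself was at 81.5, 84.4, 80.9 and 71.7 CPM in day 6 mice A to D and 178, 125, 201 and 119.5 CPM in day 8 mice A to D, with the 4 day 8 mice above day 6 and A and C the highest (log2 fold change 0.95, SE 0.14, edgeR adjusted p = 0.0272). *Chac1* (ENSMUSG00000027313.3, chr2:119351229-119354381 on GRCm38.p6, plus strand), whose enzyme degrades glutathione, was at 6.87, 7.76, 9.42 and 5.14 CPM on day 6 and 31.3, 18.8, 31.4 and 15.96 CPM on day 8 (log2 fold change 1.72, SE 0.24, edgeR adjusted p = 0.0262). *Sesn2*, which encodes a leucine sensor acting on mTORC1, was at 21.4, 22.4, 23.9 and 19.0 CPM on day 6 and 51.1, 42.4, 50.3 and 34.9 CPM on day 8 (log2 fold change 1.03, SE 0.11, edgeR adjusted p = 0.0189). In both genes every day 8 mouse exceeded every day 6 mouse, with D the lowest of day 8. The gene of the secreted hormone FGF21 was nearly silent on day 6, at 0.0196, 0.0628, 0.104 and 0 CPM, and was at 2.10, 0.311, 2.12 and 0.421 CPM on day 8. *Fgf21* was high in A and C, its fold rests on few counts, and its fitted value depends on the prior count (log2 fold change 4.59, SE 0.84, edgeR adjusted p = 0.0498). *Stc2*, a secreted glycoprotein of the same list, was the other called member, with a log2 fold change of 0.79.

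Further members of the regulator list were not called by edgeR. *Ddit3*, which encodes the stress factor CHOP, was at 15.4, 15.99, 16.4 and 15.1 CPM on day 6 and 49.3, 25.5, 64.3 and 23.6 CPM on day 8 (log2 fold change 1.35, SE 0.27, edgeR adjusted p = 0.0570). The pseudokinase gene *Trib3* was at 0.824, 0.613, 0.817 and 0.225 CPM on day 6 and 4.88, 1.42, 6.12 and 1.46 CPM on day 8 (log2 fold change 2.46, SE 0.52, edgeR adjusted p = 0.0696). Mice A and C were far above day 6 in both genes, and B and D were closer. These 2 genes were chosen after their values were seen. The most abundant gene of the list, *Vldlr*, is a lipoprotein receptor gene and was not called.

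Among transporters, *Slc7a3* of cationic amino acids was at 5.89, 6.24, 10.2 and 4.18 CPM in day 6 mice A to D and 45.6, 24.6, 55.2 and 23 CPM in day 8 mice A to D (log2 fold change 2.47, SE 0.32, edgeR adjusted p = 0.0262). The gene lies on the X chromosome (ENSMUSG00000031297.14, chrX:101079210-101086020 on GRCm38.p6, minus strand), and the lowest day 8 mouse, D, had over 2 times the level of the highest day 6 mouse, C. *Slc7a1*, also for cationic amino acids, rose from 59.8, 58.2, 66.3 and 54.0 to 122, 95.2, 112 and 89.6 CPM (log2 fold change 0.80, SE 0.093, edgeR adjusted p = 0.0189). *Slc7a5*, the light chain of a carrier of large neutral amino acids, and *Slc1a4*, a carrier of small neutral amino acids, rose with log2 fold changes of 0.80 and 0.77 (SE 0.13 and 0.12, edgeR adjusted p = 0.0396 and 0.0327). For these 3 genes too the groups did not overlap.

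Serine and one-carbon genes formed a further block. *Mthfd2* (ENSMUSG00000005667.8, chr6:83305691-83325908 on GRCm38.p6, minus strand), a mitochondrial enzyme of the folate cycle, was at 9.57, 11.3, 12.8 and 9.66 CPM on day 6 and 36.7, 23.9, 38.0 and 22.3 CPM on day 8 (log2 fold change 1.46, SE 0.17, edgeR adjusted p = 0.0189). *Shmt2*, which splits serine in mitochondria, was at 13.0, 14.0, 16.9 and 15.7 CPM on day 6 and 43.3, 25.4, 53.7 and 24.7 CPM on day 8 (log2 fold change 1.29, SE 0.22, edgeR adjusted p = 0.0430). *Psph*, the last enzyme of serine synthesis, was at 18.8, 19.5, 20.96 and 17.4 CPM on day 6 and 49.6, 34.0, 61.7 and 32.4 CPM on day 8 (log2 fold change 1.20, SE 0.18, edgeR adjusted p = 0.0262). All 3 were highest in day 8 mouse C, lowest on day 8 in mouse D and without overlap between the groups. *Aldh18a1* of proline synthesis rose with a log2 fold change of 0.99 (SE 0.16, edgeR adjusted p = 0.0346). The other called members were *Asns* of asparagine synthesis (0.98), *Phgdh* and *Psat1* of the first steps of serine synthesis (0.56 and 0.50) and *Aldh1l1*, a folate enzyme that also marks astrocytes (0.54, SE 0.10, edgeR adjusted p = 0.0497). By gene bodies, *Mthfd2* overlaps *Gm43890*, *Sesn2* overlaps *Gm12981* and *Aldh18a1* overlaps *Gm15801* on the same strand. *Shmt2* overlaps *Ndufa4l2* and *Psph* overlaps *Cct6a* on the opposite strand. How reads of these genes were divided is uncertain. *Gm43890* lies within the bounds of *Mthfd2* and was itself called higher (log2 fold change 1.52), counted among the called genes outside these lists.

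Of the synthetases, *Cars*, which loads cysteine, was at 48.0, 51.4, 53.7 and 48.7 CPM on day 6 and 109, 84.1, 116 and 77.1 CPM on day 8 (log2 fold change 0.92, SE 0.11, edgeR adjusted p = 0.0199). *Aars* for alanine, *Nars* for asparagine and *Gars* for glycine rose with log2 fold changes of 0.85, 0.79 and 0.73 (SE 0.13, 0.091 and 0.10, edgeR adjusted p = 0.0327, 0.0189 and 0.0262). *Sars*, *Yars*, *Lars* and *Iars*, for serine, tyrosine, leucine and isoleucine, were also called (0.71, 0.60, 0.59 and 0.51). In 17 of the 20 tested synthetases all day 8 mice lay above all day 6 mice, against 5.81% of all genes.

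These lists were then read per mouse. Averaged over the regulator list, the log2 difference from the day 6 mean was 1.25, 0.56, 1.49 and 0.47 in day 8 mice A to D, and day 6 mice ranged from -0.25 to 0.13. For synthesis enzymes the 4 values were 0.62, 0.37, 0.75 and 0.34, with day 6 mice from -0.086 to 0.10. Synthetases were at 0.57, 0.32, 0.65 and 0.30 (day 6 -0.066 to 0.076) and transporters at 0.33, 0.24, 0.38 and 0.22 (day 6 -0.042 to 0.071). Day 8 mice thus lay above the day 6 range on each of the 4 lists, with C the highest, A next and D the lowest. These means include the called genes, whose groups do not overlap. Without them, an alternative chosen after seeing the data, all 4 day 8 mice still lay above the day 6 range on each list. Transporters were then at 0.066, 0.068, 0.11 and 0.079 (day 6 -0.041 to 0.021), with D above A and B. The regulator list was at 0.97, 0.32, 1.25 and 0.22, and the order held on it, for synthesis enzymes and for synthetases.

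Since the mice with *Xist* were 1 of day 6 and 3 of day 8, 4 of the genes above were also compared among mice alike in *Xist*, an alternative chosen after seeing the data. Among the mice with *Xist*, log2 fold changes were 2.81 for *Slc7a3*, 1.76 for *Mthfd2*, 1.14 for *Sesn2* and 1.02 for *Atf4*. Among the mice without *Xist*, where D is the day 8 mouse, they were 1.73, 0.98, 0.67 and 0.59. Of the 57 called genes, 38 kept a log2 fold change beyond 0.5 among the mice without *Xist*, and all 57 among those with. *Slc7a5*, *Slc1a4* and *Aldh1l1*, named here after their values were seen, were at 0.35, 0.37 and 0.23 without. The lone mouse of a day is assumed in these fits to vary like the others, and the same sign on both sides follows from groups that do not overlap. Because 1 mouse stands for a day in each of these fits, no conclusion is drawn from their counts of called genes. Those counts are listed only with the other settings below.

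Promoters of the called genes on the 4 amino acid response lists were searched on both strands for 3 elements, none of which contains another. They were TGATGNAA, the core of the composite element that ATF4 binds with CEBP factors, TGACGTCA, the cyclic AMP response element, and CACGTG, the E-box. The sequences are from RefSeq on build GRCm38.p6 and run from 250 bases before to 50 bases after a gene start. RefSeq promoters matched 20 of the 25 called genes, with 22 promoters. TGATGNAA was in 8 of them (36.4%), of the genes *Aars*, *Asns*, *Chac1*, *Fgf21*, *Gars*, *Iars*, *Slc1a4* and *Yars*, against 3.97% of all 32851 promoters. CACGTG was in 4 of them (18.2%, against 7.15% of all promoters) and TGACGTCA in 0 (against 1.79%). The 5 promoters with TGATGNAA of the genes with the largest fold change are shown, with the match in capitals on the strand of the gene, TTGCATCA and TTTCATCA being matches on the opposite strand. Their positions are chr7:45615441-45615740 on the minus strand for *Fgf21*, chr2:119350992-119351291 on the plus strand for *Chac1*, chr6:7693160-7693459 on the minus strand for *Asns*, chr8:111033592-111033891 on the plus strand for *Aars* and chr11:20332664-20332963 on the minus strand for *Slc1a4*. A match is a description of the sequence and does not show that a factor was bound. The genes searched came from lists of the ATF4 and amino acid response, so the choice of lists itself favours TGATGNAA. Called genes outside these lists, and list members that were not called, were not searched as sets.
Fgf21: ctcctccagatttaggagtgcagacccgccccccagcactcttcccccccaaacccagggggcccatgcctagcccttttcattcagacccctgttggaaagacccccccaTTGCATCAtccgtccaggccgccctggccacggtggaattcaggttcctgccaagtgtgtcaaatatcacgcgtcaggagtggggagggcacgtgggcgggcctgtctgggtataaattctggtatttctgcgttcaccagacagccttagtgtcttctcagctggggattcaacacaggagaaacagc
Chac1: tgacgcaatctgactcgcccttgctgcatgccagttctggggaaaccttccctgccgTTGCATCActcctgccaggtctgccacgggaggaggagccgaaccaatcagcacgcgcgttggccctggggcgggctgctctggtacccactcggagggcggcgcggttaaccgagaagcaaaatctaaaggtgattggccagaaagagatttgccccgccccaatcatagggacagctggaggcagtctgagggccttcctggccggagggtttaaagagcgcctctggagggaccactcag
Asns: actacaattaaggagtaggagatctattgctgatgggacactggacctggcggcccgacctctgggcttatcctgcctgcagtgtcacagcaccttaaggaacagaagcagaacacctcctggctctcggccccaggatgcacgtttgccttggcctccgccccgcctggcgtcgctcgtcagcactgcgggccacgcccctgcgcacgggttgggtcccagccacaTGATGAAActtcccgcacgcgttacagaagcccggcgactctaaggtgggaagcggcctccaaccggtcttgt
Aars: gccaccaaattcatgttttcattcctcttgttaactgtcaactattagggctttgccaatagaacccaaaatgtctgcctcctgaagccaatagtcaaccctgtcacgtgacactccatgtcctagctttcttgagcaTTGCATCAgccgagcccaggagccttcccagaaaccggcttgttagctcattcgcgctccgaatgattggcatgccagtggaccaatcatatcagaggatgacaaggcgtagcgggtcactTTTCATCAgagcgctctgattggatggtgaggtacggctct
Slc1a4: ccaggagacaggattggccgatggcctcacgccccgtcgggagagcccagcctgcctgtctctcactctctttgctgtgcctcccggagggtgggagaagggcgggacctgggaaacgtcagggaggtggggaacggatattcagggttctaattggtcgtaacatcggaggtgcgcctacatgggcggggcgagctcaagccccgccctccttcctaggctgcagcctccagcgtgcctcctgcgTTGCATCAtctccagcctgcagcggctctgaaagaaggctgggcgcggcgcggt

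**Figure D2:**
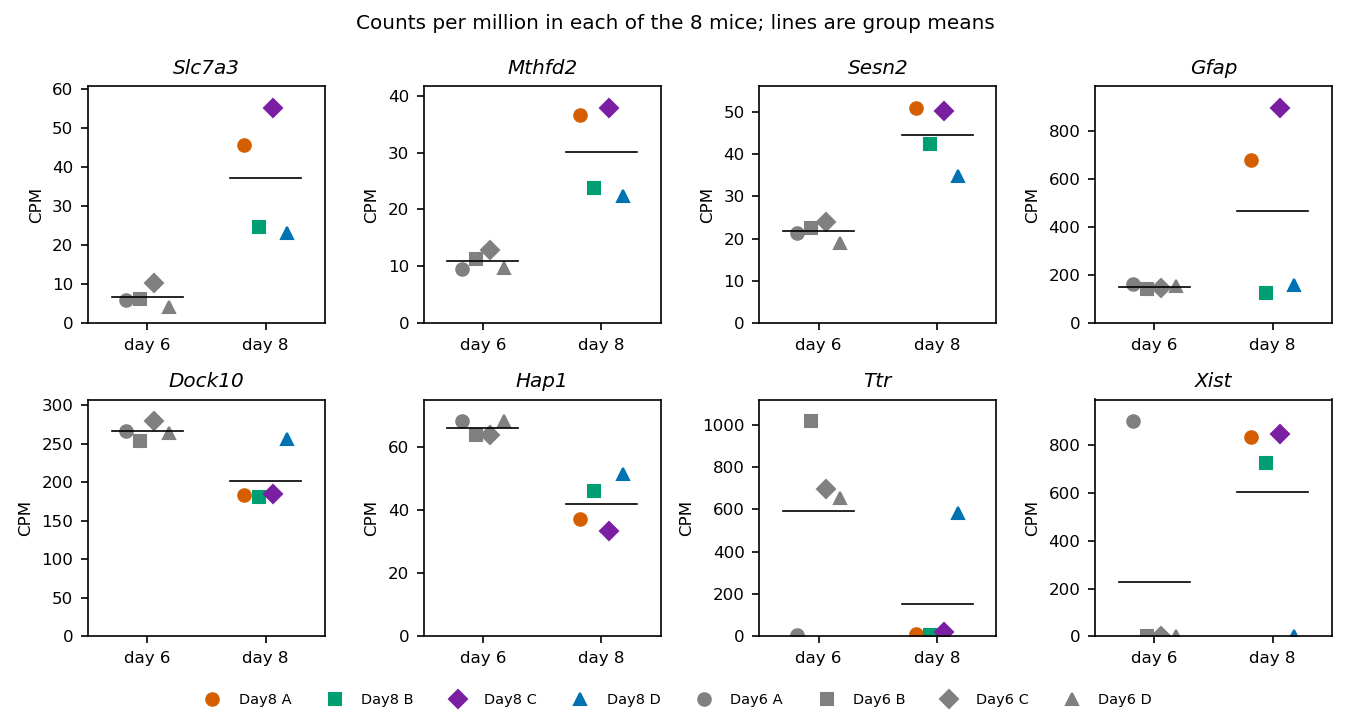
CPM of 8 genes in the 4 day 6 mice (grey) and the 4 day 8 mice (coloured), with group means as lines and a linear y axis from 0. *Slc7a3*, *Mthfd2* and *Sesn2* do not overlap between the days, *Gfap* is high in day 8 mice A and C, *Dock10* is low in A, B and C, *Hap1* is lower in all 4, and *Ttr* and *Xist* divide the mice in opposite ways.

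The remaining 20 genes called higher lay outside these lists. *Eif4ebp1* encodes a translation repressor that mTORC1 phosphorylates, and was the 1 called gene of 23 on the list of the TSC complex and mTORC1 core (0.181% of all genes were called higher). It was at 2.18, 2.51, 2.95 and 1.52 CPM in day 6 mice A to D and 9.52, 4.89, 13.4 and 4.65 CPM in day 8 mice A to D, with C and A the highest (log2 fold change 1.80, SE 0.33, edgeR adjusted p = 0.0498). *Mtor* and *Tsc2* had log2 fold changes of -0.026 and 0.016 and were not called, and the list's median was -0.0016. List means were 0.11, 0.10, 0.14 and 0.045 in day 8 mice A to D, above the day 6 range of -0.036 to 0.036, but without *Eif4ebp1*, an alternative chosen after seeing the data, they were 0.018, 0.053, 0.025 and -0.00070 and 0.000055, -0.0063, 0.019 and -0.013 on day 6, with A and D within the day 6 range. *Cyb5r1*, a cytochrome b5 reductase gene, was at 16.7, 18.4, 24.6 and 15.5 CPM on day 6 and 76.4, 39.8, 90.6 and 42.5 CPM on day 8 (log2 fold change 1.71, SE 0.25, edgeR adjusted p = 0.0262). *Trim66*, a gene of the tripartite motif family, was at 22.1, 29.5, 27.2 and 26.2 CPM on day 6 and 80.8, 51.8, 98.0 and 41.1 CPM on day 8 (log2 fold change 1.36, SE 0.22, edgeR adjusted p = 0.0417). In these genes A and C were again above B and D, and B and D above all of day 6.

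*Fam129a*, also named Niban, rose from 3.11 to 3.67 CPM on day 6 to 10.8, 5.15, 11.4 and 8.25 CPM in day 8 mice A to D (log2 fold change 1.42, SE 0.21, edgeR adjusted p = 0.0262). *Pcdh12*, a protocadherin of endothelium, was at 1.04, 1.34, 1.08 and 1.27 CPM on day 6 and 4.51, 2.07, 4.13 and 2.49 CPM on day 8 (log2 fold change 1.46, SE 0.25, edgeR adjusted p = 0.0417). The other called genes were named after their values were seen. They included *Plau*, a secreted protease, *Eif3c*, a translation initiation subunit, *Tcf19*, *Slc16a14*, *Arhgef15* and *Pcdh11x*, with log2 fold changes of 0.80, 0.69, 0.89, 0.67, 0.57 and 0.63. For *Pcdh11x* and *Plxdc1* (0.96) mouse B was the highest of day 8, at 41.2 and 19.7 CPM.

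Fewer genes fell. *Hap1*, which encodes a trafficking protein that binds huntingtin, was at 68.1, 63.7, 63.7 and 68.2 CPM on day 6 and 37.1, 46.1, 33.5 and 51.5 CPM on day 8 (log2 fold change -0.66, SE 0.12, edgeR adjusted p = 0.0484). *Crym*, a thyroid hormone binding protein, was at 117, 93.8, 95.0 and 90.4 CPM on day 6 and 68.0, 78.3, 57.4 and 68.3 CPM on day 8 (log2 fold change -0.56, SE 0.10, edgeR adjusted p = 0.0497). Mouse C was the lowest in both, mouse D the highest of day 8 in *Hap1* and mouse B in *Crym*, and the groups did not overlap. *Slc29a4*, a monoamine transporter of the cell membrane, and *Col15a1*, a basement membrane collagen, fell with log2 fold changes of -0.64 and -0.72 (SE 0.11 and 0.12, edgeR adjusted p = 0.0417 and 0.0417). *Hap1* overlaps *Gm20394* on the same strand and *Col15a1* overlaps *Gm12426* on the opposite strand.

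Which day 8 mice carried the change was read per mouse. Among the 45 genes called higher, the mouse farthest from the day 6 mean was C for 30 genes, A for 12, B for 3 and D for 0, and the nearest was D for 27, B for 14, A for 2 and C for 2. Median log2 differences from day 6 over these genes were 1.09 in A, 0.73 in B, 1.05 in C and 0.64 in D. Among the 12 genes called lower, C was farthest for 8 and D nearest for 8, with medians of -0.77, -0.80, -0.92 and -0.52 in A to D. All 4 mice thus carried the called genes, at unequal size, which the call itself favours since it asks for 4 mice that move together.

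To place each mouse by genes it did not help to choose, genes were called without it and its mean log2 difference from day 6 was taken over them, falls with the sign turned. Mouse B was at 0.56 over 164 genes, C at 1.23 over 55 and D at 0.30 over 482, and for A and the day 6 mice edgeR called 0 genes without them. By the 200 genes of smallest p in each such fit, an alternative added after seeing the data, day 8 mice A to D were at 0.96, 0.52, 1.05 and 0.35, and day 6 mice A to D at 0.21, 0.24, 0.22 and 0.066. C and A lay highest, B between, and D closest to the day 6 mice. Mouse D is the day 8 mouse without *Xist* and with high *Ttr*, as are day 6 mice B, C and D, and the part of sex or choroid plexus RNA in its position was not tested. By the median in place of the mean, day 6 mouse A was at 0.062 and day 6 mouse D at 0.018, and with 500 genes day 6 mouse D was at 0.15. The leading principal component of all tested genes, with 31.9% of the variance, was at -8.92, -25.2, -25.0 and -26.8 for day 6 and 37.8, 7.01, 56.5 and -15.5 for day 8 mice A to D. Mouse D lay within the day 6 range on it.

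The mice also differed in how many genes lay far from day 6. Of 18121 genes with a mean of at least 1 CPM, 216 were over 1 log2 unit above all 4 day 6 mice in mouse C, 91 in A, 13 in B and 7 in D. Over 1 unit below all day 6 mice were 121 genes in C, 52 in A, 25 in B and 6 in D. Measured in the same way against the other 3 day 6 mice, the day 6 mice had 2, 0, 3 and 1 genes above and 54, 2, 2 and 4 below. Among the 18070 of these genes that edgeR did not call, the counts above were 199 in C, 75 in A, 11 in B and 4 in D. By this margin of 1 log2 unit, A and C together, but neither B nor D, exceeded day 6 for 72 genes, and C alone for 140, A alone for 12, B alone for 9 and D alone for 2. In 32 of the 72, B and D lay above all day 6 mice too, by less than that margin in each. *Fgf21* is left out of these counts by its low mean. Of the 72 genes, edgeR called 12 higher and DESeq2 35, and 39 were on no list. Of the 140 of C alone, edgeR called 2 higher and DESeq2 28. Of all tested genes these shares are 0.181% and 1.05%, but the 72 and the 140 were picked for lying far above day 6, which itself favours a call.

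**Figure D3:**
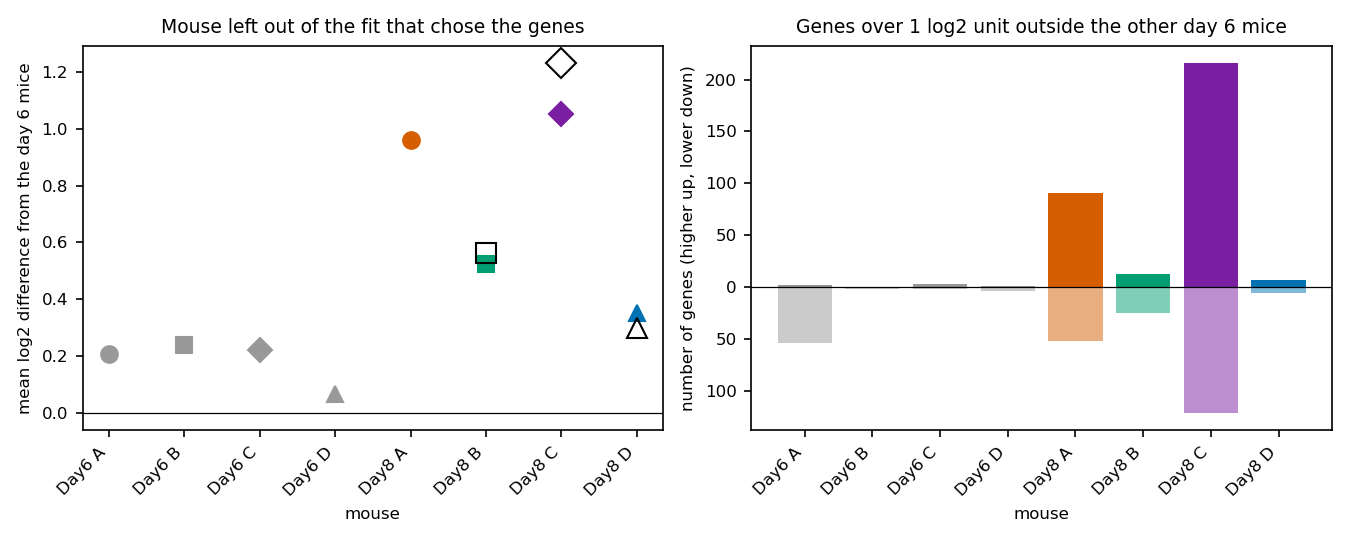
Left, the mean log2 difference of each mouse from the day 6 mice over genes chosen in fits without that mouse, with filled symbols for the 200 genes of smallest p and open symbols for called genes where there were any. Right, the number of genes over 1 log2 unit above (up) or below (down) every other day 6 mouse, where day 8 mice A and C have 91 and 216 genes above and mice B and D 13 and 7.

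Reactive astrocyte genes showed this division of the day 8 mice. *Gfap*, the intermediate filament of astrocytes, was at 163, 142, 146 and 155 CPM in day 6 mice A to D and 682, 127, 900.0 and 158 CPM in day 8 mice A to D, high in A and C and in B and D close to the day 6 mice (log2 fold change 1.602, SE 0.52, edgeR adjusted p = 0.164). *Serpina3n*, a secreted protease inhibitor, was at 30.2, 26.6, 33.5 and 28.1 CPM on day 6 and 83.4, 31.4, 111 and 32.8 CPM on day 8 (log2 fold change 1.11, SE 0.35, edgeR adjusted p = 0.155). Of 26 genes on the list 0 were called by edgeR and 3 by DESeq2 (*C4b*, *Fbln5* and *Nes*, against 1.05% of all genes called higher), and 16 (61.5%, against 17.1% of all genes) had an unadjusted p under 0.05, with a median log2 fold change of 0.83. List means were 0.63, -0.35, 1.496 and 0.15 in day 8 mice A to D and -0.18 to 0.11 in day 6 mice, so that A and C were above, B below and D just above the day 6 mice. Other genes of A and C, chosen after their values were seen, were *Vim*, a further filament gene (55.5 and 92.9 CPM, against 16.9 and 22.9 in B and D and 19.1 to 22.97 on day 6), and *Cd44*, a receptor for hyaluronan (13.3 and 26.0 CPM, against 1.45 and 3.40 and 2.28 to 4.05 on day 6).

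Neuronal activity genes were uneven. The 25 immediate early genes, which firing neurons switch on within minutes, had a median log2 fold change of 0.039 and 0 calls by edgeR or DESeq2, with 6 (24%, against 17.1% of all genes) at an unadjusted p under 0.05. *Arc* and *Jun* had log2 fold changes of 0.048 and -0.28, and list means of 0.084, 0.21, 0.21 and -0.14 in day 8 mice A to D overlapped the day 6 range of -0.12 to 0.14. Delayed activity genes and growth factors had a median of 0.31 over 27 genes with 0 calls by edgeR or DESeq2 (10, or 37%, at an unadjusted p under 0.05), and list means of 0.40, 0.031, 0.77 and -0.025, against -0.044 to 0.070 on day 6. A and C were above day 6 there, B and D within its range. *Scg2*, a granin, was at 202, 192, 193 and 198 CPM on day 6 and 259, 186, 469 and 228 CPM on day 8, with C far above the other mice and B below day 6. Its log2 fold change was 0.53, and 0.18 without C. *Ntrk2*, the BDNF receptor, had a log2 fold change of 0.020. Neuropeptide and granin genes (24 tested, median 0.20, 0 called by edgeR or DESeq2, 9, or 37.5%, at an unadjusted p under 0.05) had list means of 0.090, 0.13, 0.61 and 0.044, with C alone above the day 6 mice. *Npy*, the inhibitory neuropeptide Y, was at 9.61, 8.62, 6.79 and 10.6 CPM on day 6 and 32.9, 9.47, 62.7 and 7.30 CPM on day 8 (log2 fold change 1.64, SE 0.55, edgeR adjusted p = 0.179), and *Penk*, the enkephalin precursor, at 14.1, 12.6, 13.7 and 15.0 CPM on day 6 and 36.9, 10.8, 84.7 and 11.2 CPM on day 8. Both were high in A and C, and were chosen after their values were seen. *Chgb* and *Pcsk2* of the same list had log2 fold changes of 0.36 and -0.027.

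Cell cycle genes had a median log2 fold change of 0.52 over 24 genes, with 0 called by edgeR, 2 by DESeq2 (*Cenpf* and *Top2a*, against 1.05% of all genes called higher) and 16 (66.7%, against 17.1% of all genes) at an unadjusted p under 0.05. List means were 0.89, 0.18, 0.73 and 0.10 in day 8 mice A to D, all above the day 6 range of -0.11 to 0.042, with A and C far above. *Top2a*, a topoisomerase of dividing cells chosen after its values were seen, was at 3.57, 3.03, 3.49 and 2.81 CPM on day 6 and 13.4, 4.74, 11.7 and 3.97 CPM on day 8 (log2 fold change 1.37, SE 0.34, edgeR adjusted p = 0.102). *Ccnd2* and *Ccnd1*, the most abundant members, had log2 fold changes of -0.010 and 0.17, and *Ccnd2* was lowest of the 8 mice in C, at 81.7 CPM. Replication-dependent histones (50 tested of 67, median 0.21, 0 called by edgeR, *Hist1h2bm* and *Hist1h2bn* by DESeq2 and 12, or 24%, at an unadjusted p under 0.05) had list means of 0.63, -0.11, 0.60 and -0.32, high in A and C and below day 6 in B and D. *Hist1h4d* and *Hist1h1e* had log2 fold changes of 0.0040 and 0.16, and reads of such near-identical copies may have been divided between them.

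Metabolic lists differed less in size and more evenly between mice. In sterol and fatty acid synthesis, 0 of 29 genes were called by edgeR or DESeq2 (21, or 72.4%, against 17.1% of all genes, at an unadjusted p under 0.05), yet all 4 day 8 mice lay above all day 6 mice in 18 of them, against 5.81% of all genes. The median log2 fold change was 0.28, and list means were 0.30, 0.21, 0.23 and 0.21 in day 8 mice A to D, against -0.054 to 0.070 on day 6, so that D was here level with B. *Scd2* and *Fasn*, the most abundant members, had log2 fold changes of 0.073 and 0.13. Lysosomal genes and the TFEB family had 0 calls by edgeR and 1 by DESeq2 of 26 (*Gla*, against 1.05% of all genes called higher, with 20, or 76.9%, at an unadjusted p under 0.05), with 16 above day 6 in all 4 mice, a median of 0.21 and list means of 0.29, 0.18, 0.31 and 0.13. *Atp6v1a* and *Atp6v0a1* of the lysosomal proton pump had log2 fold changes of 0.14 and 0.12. Nuclear genes of oxidative phosphorylation (83 tested, 0 called by edgeR, *Cox6a2* by DESeq2 and 42, or 50.6%, at an unadjusted p under 0.05, 30 above day 6 in all 4 mice, median 0.11) had list means of 0.11, 0.064, 0.16 and 0.058, and *Atp5b* and *Atp5a1* of the ATP synthase had log2 fold changes of 0.18 and 0.17. By list means, 14 of 49 lists, or 13 without their called genes, lay above the day 6 range in all 4 day 8 mice and 1 lay below it.

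The list below day 6 in all 4 mice was that of dentate granule neurons, with a median log2 fold change of -0.40 over 20 genes, 0 called by edgeR, 2 called lower by DESeq2 (*Calb1*, a calcium-binding protein, and *Trpc6*, a cation channel, against 0.621% of all genes) and 15 (75%, against 17.1% of all genes) at an unadjusted p under 0.05. In 5 of the 20 genes all 4 day 8 mice lay below all day 6 mice, against 4.50% of all genes. The list means were -0.66, -0.56, -0.72 and -0.11 in day 8 mice A to D and -0.088 to 0.041 on day 6. *Dock10*, its most abundant gene, was at 267, 253, 279 and 264 CPM on day 6 and 184, 181, 185 and 256 CPM on day 8 (log2 fold change -0.41, SE 0.10, edgeR adjusted p = 0.103), low in A, B and C and within the day 6 range in D. *Sema5a*, a semaphorin, was at 262, 252, 276 and 263 CPM on day 6 and 177, 160.4, 194 and 275 CPM on day 8, with mouse D within the day 6 range. Its log2 fold change of -0.40 was -0.59 among mice with *Xist* and turned to 0.051 among mice without. *Prox1*, the defining factor of granule cells, was at 130.1, 105, 128 and 123 CPM on day 6 and 99.8, 75.6, 129.6 and 112 CPM on day 8 and did not separate the groups. Mice A, B and C are the day 8 mice with *Xist* and little *Ttr*, and day 6 mouse A also had *Xist* and little *Ttr*. The part of sex or of dissection in these values was not tested. In bulk RNA, fewer cells of a type and less RNA per cell cannot be told apart.

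**Figure D4:**
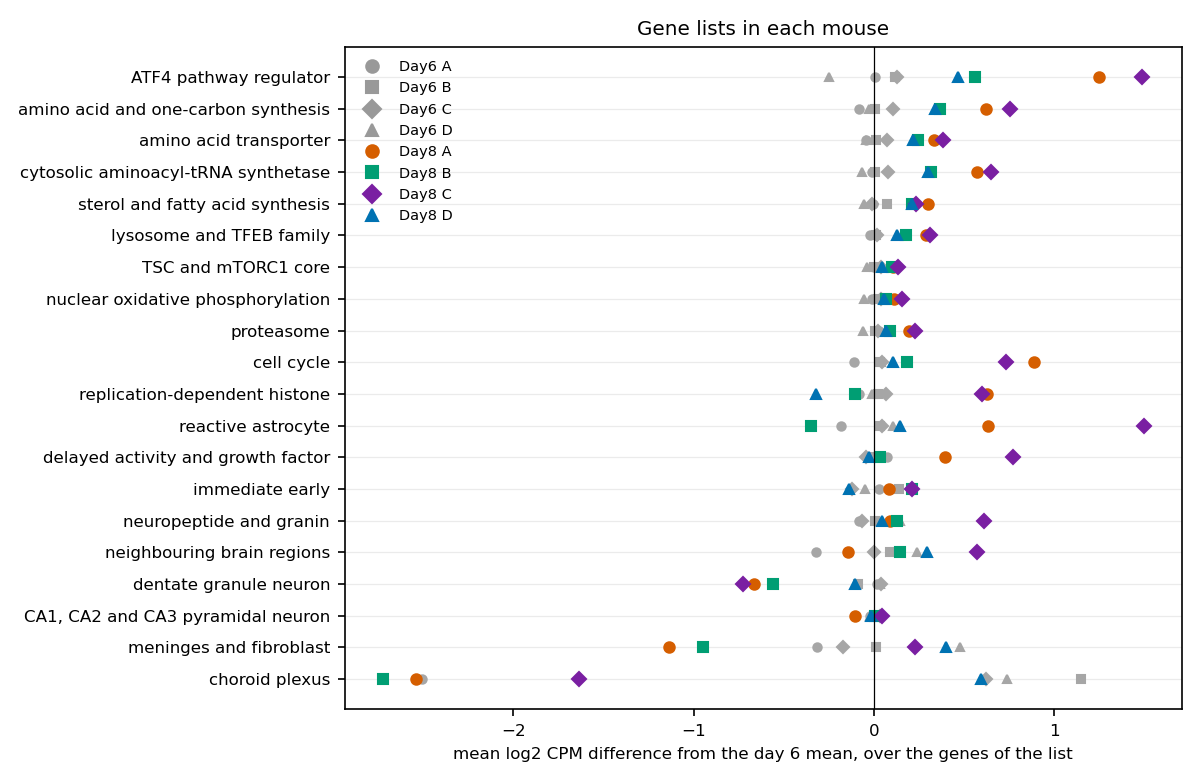
Mean log2 CPM difference from the day 6 mean (x axis) over the genes of 20 lists, with 1 symbol per mouse, grey for day 6 and coloured for day 8. The 4 amino acid lists have all 4 day 8 mice above day 6, reactive astrocyte and histone genes are high in day 8 A and C, and the choroid plexus list places day 6 mouse A beside day 8 mice A, B and C.

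The other lists held 0 genes called by edgeR apart from *Aldh1l1* of the homeostatic astrocyte list. Genes called by DESeq2 and the number at an unadjusted edgeR p under 0.05 follow for each list after its number of genes tested, and the genes DESeq2 called are named after their values were seen. Over all genes these shares are 1.67% and 17.1%. In neurons and their channels, medians were -0.087 for voltage-gated potassium channel genes (38 tested, *Kcnip2* and *Kcnip3* called by DESeq2, 11 at that p, *Kcnab2* 0.079), -0.013 for other potassium channel genes (25 tested, *Kcnj2* called by DESeq2, 8 at that p, *Kcnma1* 0.11 and *Kcnj3* 0.00087), -0.0045 for sodium, calcium and HCN channel genes (31 tested, 0 called by DESeq2, 9 at that p, *Cacna1e* -0.13 and *Scn8a* 0.057), -0.027 for GABA-A receptor genes (15 tested, 0 called by DESeq2, 1 at that p, *Slc12a5* -0.065) and -0.079 for glutamate receptor genes (29 tested, 0 called by DESeq2, 7 at that p, *Grin2b* -0.014 and *Gria2* -0.15).

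Stress and energy lists had medians of 0.12 for ER folding and unfolded protein response genes (24 tested, *Herpud1* called by DESeq2, 3 at that p, *Canx* 0.17 and *Sel1l* 0.13), 0.10 for heat shock chaperone genes (16 tested, *Bag3* called by DESeq2, 6 at that p, *Hspa8* 0.22 and *Hsp90ab1* 0.076), 0.12 for glycolysis and pentose phosphate genes (29 tested, 0 called by DESeq2, 11 at that p, *Aldoa* 0.21 and *Pkm* 0.21), 0.089 for oxidative stress and metallothionein genes (20 tested, *Hmox1* called by DESeq2, 3 at that p, *Sod2* 0.0052 and *Sod1* 0.065) and 0.19 for p53 and apoptosis genes (20 tested, 0 called by DESeq2, 6 at that p, *Plk2* 0.39 and *Zmat3* -0.079). A and C were above the day 6 range on both chaperone lists, at 0.25 and 0.40 for heat shock genes, and B and D within it. Further lists of cell machinery had medians of 0.11 for proteasome genes (50 tested, 0 called by DESeq2, 19 at that p, *Psmd2* 0.17 and *Psme4* -0.0050), 0.11 for ribosome biogenesis genes (40 tested, 0 called by DESeq2, 11 at that p, *Rrp1* 0.20 and *Ncl* 0.048), 0.074 for cytosolic ribosomal protein genes (80 tested, 0 called by DESeq2, 16 at that p, *Rpl4* 0.084 and *Rpl3* 0.033), 0.12 for mitochondrially encoded genes (11 tested, 0 called by DESeq2, 3 at that p, *mt-Co1* 0.12 and *mt-Nd1* 0.18), -0.046 for circadian clock genes (18 tested, 0 called by DESeq2, 7 at that p, *Tef* -0.21 and *Clock* 0.060) and 0.016 for glucocorticoid response genes (18 tested, 0 called by DESeq2, 5 at that p, *Klf9* 0.066 and *Nr3c1* -0.050). By list mean, genes of glycolysis, p53 and apoptosis, the proteasome and ribosome biogenesis were above the day 6 range in all 4 day 8 mice.

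Cell type lists had medians of -0.14 for GABAergic interneuron genes (23 tested, 0 called by DESeq2, 9 at that p, *Cnr1* -0.14), 0.046 for CA1, CA2 and CA3 pyramidal neuron genes (25 tested, 0 called by DESeq2, 4 at that p, *Camk2a* -0.26 and *Slc17a7* 0.15), -0.011 for homeostatic astrocyte genes (21 tested, *Aldh1l1* called by DESeq2, 7 at that p, *Slc1a2* -0.093 and *Glul* -0.15), -0.11 for mature oligodendrocyte genes (20 tested, 0 called by DESeq2, 9 at that p, *Mbp* 0.00071), -0.040 for oligodendrocyte precursor genes (16 tested, 0 called by DESeq2, 4 at that p, *Pdgfra* 0.039 and *Olig1* -0.042) and 0.022 for endothelial and mural genes (22 tested, *Kdr* called by DESeq2, 5 at that p, *Rgs5* -0.00033 and *Flt1* 0.051). Adult neurogenesis genes had a median of 0.00053 over 17 tested genes (*Nes* called by DESeq2, 3 at that p), and *Ncam1* had a log2 fold change of -0.0069. *Tubb3*, a neuronal tubulin of that list, had an edgeR adjusted p of 0.0417 but, at a log2 fold change of 0.36 (SE 0.059), was under the fold threshold and not called. Its levels were 173, 184, 180.3 and 173 CPM on day 6 and 218, 258, 223 and 221 CPM on day 8, without overlap. Immune and matrix lists had medians of 0.12 for microglia genes (26 tested, *C1qb* and *C1qc* called by DESeq2, 6 at that p, *Csf1r* 0.047), 0.037 for cytokine and chemokine genes (16 tested, 0 called by DESeq2, 5 at that p, *Cx3cl1* 0.033 and *Il33* 0.33), 0.19 for interferon-stimulated genes (24 tested, *Gbp3*, *Ifit3* and *Ifit3b* called by DESeq2, 9 at that p, *Stat2* 0.062 and *Ifi27* 0.026), 0.13 for MHC and antigen presentation genes (16 tested, *H2-D1* called by DESeq2, 5 at that p, *B2m* 0.29 and *H2-D1* 0.55) and 0.073 for matrix and protease genes (24 tested, *Lama4* called by DESeq2, 5 at that p, *Col4a1* 0.40 and *Col4a2* 0.17). *H2-D1* of MHC class I was at 16.7, 21.02, 16.7 and 18.1 CPM on day 6 and 26.0, 25.3, 33.2 and 22.7 CPM on day 8, with C the highest. *C4b*, a complement gene chosen after its values were seen, was at 23.6, 22.9, 22.4 and 25.6 CPM on day 6 and 86.6, 32.0, 113 and 29.6 CPM on day 8 (log2 fold change 1.45, SE 0.36, edgeR adjusted p = 0.103), high in A and C. Interferon-stimulated genes were above the day 6 range in all 4 day 8 mice by list mean. On the microglia list, means were 0.28, 0.055, 0.47 and 0.057 in day 8 mice A to D, highest in A and C.

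Lists of tissue beside the hippocampus had medians of 0.14 for blood genes (6 tested, 0 called by DESeq2, 0 at that p, *Hbb-bs* 0.37 and *Alas2* -0.10), 0.34 for neighbouring brain regions genes (16 tested, 0 called by DESeq2, 5 at that p, *Tshz2* 0.22 and *Cux2* 0.30), -0.19 for meninges and fibroblast genes (14 tested, 0 called by DESeq2, 1 at that p, *Dcn* 0.13 and *Col1a2* 0.031) and -0.027 for long nuclear RNA genes (14 tested, 0 called by DESeq2, 5 at that p, *Malat1* 0.18 and *Gm26917* -0.54), and sex-linked genes a median of -1.48 over 5 genes (0 called by DESeq2, 0 at that p). The long nuclear RNA list includes *Xist*. *Gm26917* was at 8970, 11126, 11486 and 10683 CPM on day 6 and at 9293, 9376, 5315 and 5418 CPM on day 8. Day 8 mice A and B, which share the first part of the file number, thus lay apart from C and D, which share another. On day 6 A and B did not part from C and D in it. Its log2 fold change was -0.18 among mice with *Xist* and -1.04 among mice without. What this division marks was not tested. Choroid plexus genes had a median of -1.36 over 18 genes with 0 calls by edgeR or DESeq2 (4, or 22.2%, against 17.1% of all genes, at an unadjusted p under 0.05), *Trpm3* among them with -0.54. Their list means were -2.54, -2.72, -1.64 and 0.59 in day 8 mice A to D and -2.50, 1.15, 0.62 and 0.74 in day 6 mice A to D. Meningeal genes were at -1.14, -0.95, 0.23 and 0.40 on day 8 and -0.31, 0.010, -0.17 and 0.48 on day 6, low in day 8 mice A and B. Summed over the meninges list, CPM were 63.8, 71.9, 66.8 and 97.2 on day 6 and 42.0, 41.2, 104 and 92.4 on day 8. On the neighbouring regions list, day 8 mouse C had the highest mean, 0.57, and its part in the genes that stood apart in mouse C was not tested.

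Of the called genes, 3 were also read in the other groups, as a description. *Slc7a3* averaged 2.94 ± 0.494 CPM (SD, n = 4) in controls, 3.59 ± 0.372 on day 4, 6.63 ± 2.56 on day 6, 37.1 ± 15.9 on day 8, 61.1 ± 23.2 on day 13 and 2.86 ± 0.468 in rapamycin-treated mice. *Mthfd2* averaged 4.75 ± 0.380, 5.19 ± 0.969, 10.8 ± 1.53, 30.2 ± 8.26, 39.1 ± 11.9 and 4.95 ± 0.321 CPM in the same order. *Hap1* averaged 77.3 ± 2.37, 83.1 ± 2.45, 65.9 ± 2.56, 42.1 ± 8.23, 29.5 ± 10.9 and 79.4 ± 11.5 CPM. The day 6 mean was on the side of day 8 relative to controls in these 3 genes, in 37 of the 45 genes called higher and in 6 of the 12 called lower, against 48.5% and 49.9% of all tested genes that were higher or lower on day 8. *Aldh1l1* averaged 44.6, 35.4 and 52.0 CPM and *Crym* 98.6, 99.1 and 68.0 CPM in controls, on day 6 and on day 8, and were among those that were not, named after their values were seen. In the 3 genes the means of the rapamycin group, taken on day 13, were near those of the controls, taken on day 8. No rapamycin-treated mice were taken on day 8 and no controls on day 13.

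**Figure D5:**
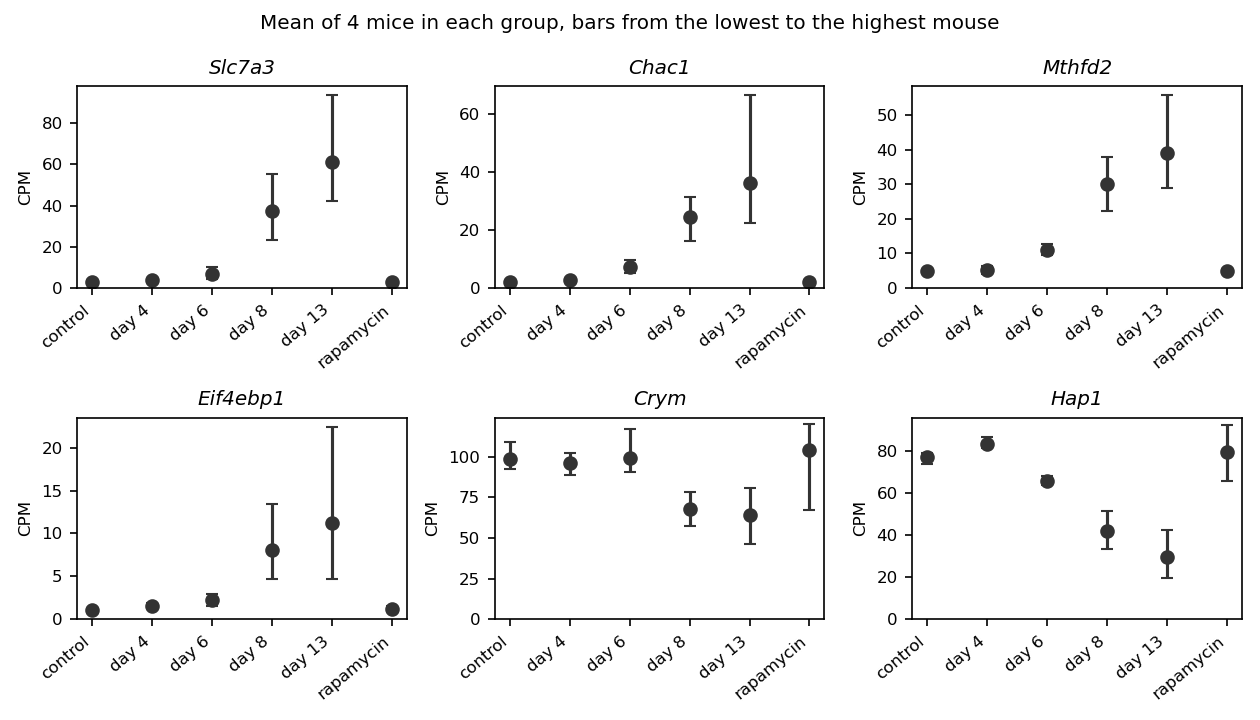
Mean CPM of 6 named genes in the 6 groups of 4 mice (linear y axis from 0), with bars from the lowest to the highest mouse. *Slc7a3*, *Chac1*, *Mthfd2* and *Eif4ebp1* are higher on day 8 than on day 6 and *Crym* and *Hap1* lower, and the rapamycin means (mice taken on day 13) are near the controls (taken on day 8).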

How the data were processed

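Hippocampal RNA of 24 mice was sequenced, and 8 were compared, grouped by sample title. By the submitters' processing notes, reads were trimmed with cutadapt 1.16.5, aligned with STAR 2.7.2b and counted with featureCounts 1.6.4, and the authors deposited raw read counts per gene without normalization. The files hold 55385 gene identifiers, of which 55144 were found in GENCODE M21 and 54487 with the same version. Strand setting and the handling of reads with several alignments are not given in the sources used here, so values of overlapping genes and near-identical copies are uncertain. Counts were fitted in R 4.3.3 with edgeR 4.0.16 (filterByExpr, TMM scaling, quasi-likelihood F test, Benjamini-Hochberg adjustment over all genes tested), and with DESeq2 1.42.0 as an alternative. Calls needed a log2 fold change beyond 0.5 in either direction and an adjusted p-value under 0.05. List means per mouse used log2 CPM with a prior count of 2. All fits were tested on simulated data. Alternatives left out each mouse, changed the scaling, filter, tool, covariate or mice, added a replicate block or corrected for GC content. The *Ttr* covariate, the fits among mice alike in *Xist*, the list means without called genes and the 200 genes of smallest p were chosen after seeing the data.

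The comparison, its members and the gene lists were chosen with earlier results of these data known. The rule for named genes took the 12 largest changes among called protein-coding genes in each direction, with a mean of at least 1 CPM and no overlap between groups, up to 4 called genes of a list, the 2 most abundant genes of a list with fewer than 2 called, the most abundant gene of each cell type list, and *Tsc1*. Not every gene the rule took is named, and other genes named were chosen after their values were seen.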

Additional observations from a re-analysis of the deposited data

Results flagged for a closer look

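A mouse far from the other 3 of its group was looked for in each group of 4 values, as a gap to the nearest other mouse that, as a share of the group's whole range, exceeds Dixon's critical value for 4 samples. This was so in 27 of 338 groups of values, where chance gives about 1 in 20, or 16.9. In day 6 mouse A, *Sel1l* at 254 CPM, *Cnr1* at 251 CPM, *Ncam1* at 319 CPM, *Ccnd1* at 25.3 CPM, *Xist* at 902 CPM, *Ddx3y* at 0.0392 CPM and *Crym* at 117 CPM stood apart in this way. In day 6 mouse B, *Ifi27* at 21.03 CPM stood apart. In day 8 mouse A, *Ncam1* at 322 CPM stood apart in this way. In day 8 mouse B, *Sod1* at 88.6 CPM, *Tubb3* at 258 CPM and *Cux2* at 59.4 CPM stood apart in this way. In day 8 mouse C, *Jun* at 64.7 CPM and *Ccnd2* at 81.7 CPM stood apart in this way. In day 8 mouse D, *Dock10* at 256 CPM, *Ttr* at 582 CPM, *Xist* at 3.18 CPM and *Ddx3y* at 63.4 CPM stood apart in this way. Among list means, given as log2 differences from the day 6 mean, those apart were 0.61 for the neuropeptide and granin list in day 8 mouse C, -0.11 for the cell cycle list, -2.50 for the choroid plexus list, 0.49 for the long nuclear RNA list and -4.12 for the sex-linked list in day 6 mouse A, 0.17 for the oligodendrocyte precursor list in day 6 mouse D and -0.23 for the long nuclear RNA list and 1.53 for the sex-linked list in day 8 mouse D. On the leading principal component, day 6 mouse A stood apart at -8.92. Day 6 mouse A and day 8 mouse D, the 1 mouse of its group with and the 1 without *Xist*, account for 18 of the 27.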

How the results depend on the processing

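With 4 mice a group and sex and choroid plexus RNA unbalanced, the comparison holds only for these mice. edgeR called 57 genes (45 higher, 12 lower, 78.95% higher). Leaving out 1 mouse gave 0 to 482 calls, 0 to 257 higher and 0 to 225 lower. The count was 0 without day 6 A, B, C or D or day 8 A, with lowest adjusted p of 0.0551 to 0.137 and 3173 to 3511 genes at an unadjusted p under 0.05, 164 without day 8 B, 55 without day 8 C and 482 without day 8 D (53.32% higher). DESeq2 was not run without a mouse. Fewer mice went into each of these fits, and the cause of the differences was not tested.

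DESeq2 called 310 genes on the 8 mice (195 higher, 115 lower) and 193 on all 24 (128 higher, 65 lower, 50 shared with the 57). edgeR on all 24 mice called 96 (74 higher, 22 lower, 47 shared) and without a filter on low counts 192 (136 higher, 56 lower). Without a fold threshold there were 104 (84 higher, 20 lower), and over a log2 fold change of 1 there were 20 (17 higher, 3 lower). With *Xist* or *Ttr* as a covariate edgeR called 0 genes, 0 higher and 0 lower, with lowest adjusted p of 0.177 and 0.145, and 2437 and 2814 at an unadjusted p under 0.05. Among the mice with *Xist* it called 1 (0 higher, 1 lower, 1583 at an unadjusted p under 0.05), and among those without 119 (46 higher, 73 lower, 38.66% higher). In both fits among mice alike in *Xist*, 1 mouse stands for a day, so no conclusion is drawn from their counts. DESeq2 size factors gave 49, more than 10 counts in at least 4 mice 48 and the correction for GC content 72. The replicate block gave 60 (51 higher, 9 lower, 40 shared), where letters do not pair mice: same-letter correlations across genes of log2 CPM less its group mean were 0.155, -0.024, -0.020 and 0.103 for A to D. All 57 genes kept their sign in each of these settings. They also kept an unadjusted p under 0.05 in each, leaving aside the fits among mice alike in *Xist*, for which p-values are not given. The genes were called for a small p in the same mice, so this follows largely from how they were chosen. Without called genes, 13 lists in place of 14 lay above the day 6 range in all 4 day 8 mice, an alternative chosen after seeing the data. Over genes called at a log2 fold change above 1, the position of day 8 mouse C was 1.90.

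Log2 fold changes of genes that were not called turned sign as follows in fits of all 8 mice or more, and the cause was not tested. With *Xist* as a covariate, 0.0085 for *Tsc1*, -0.12 for *Arc*, -0.015 for *Ntrk2*, -0.016 for *Sod2*, -0.016 for *Ccnd1*, -0.010 for *Cx3cl1*, 0.011 for *Rgs5*, 0.26 for *Ttr*, 0.58 for *Ddx3y*, -0.11 for *Hist1h4d* and 0.013 for *Psme4*. With *Ttr* as a covariate, -0.13 for *Arc*, -0.0046 for *Ntrk2*, -0.020 for *Sod2*, -0.0058 for *Cx3cl1*, 0.015 for *Rgs5*, 0.0014 for *Ttr*, 0.68 for *Ddx3y*, -0.082 for *Hist1h4d* and 0.016 for *Psme4*. With a correction for GC content, -0.0057 for *Tsc2*, -0.0065 for *Mbp*, 0.022 for *Rgs5* and 0.0021 for *Psme4*. Without a filter on low counts, -0.00055 for *Sod2*, -0.0049 for *Mbp*, -0.0049 for *Kcnj3* and -0.0012 for *Hist1h4d*. With edgeR on all 24 mice, 0.0059 for *Ncam1*, 0.0020 for *Ccnd2*, 0.012 for *Rgs5* and 0.0076 for *Psme4*. With genes of more than 10 counts in at least 4 mice, -0.0019 for *Mbp* and -0.0019 for *Kcnj3*. With DESeq2 on all 24 mice, 0.0057 for *Rgs5* and 0.00092 for *Psme4*. With DESeq2 on the 8 mice, 1.7e-05 for *Rgs5*. With DESeq2 size factors in edgeR, 1.5e-07 for *Rgs5*. With a replicate block, -0.0015 for *Kcnj3*, -0.19 for *Col1a2* and -0.0068 for *Hist1h4d*. Leaving out 1 mouse gave ranges of -0.15 to 0.17 for *Arc*, -0.054 to 0.083 for *Ccnd2*, -0.50 to 0.30 for *Col1a2*, -0.0064 to 0.085 for *Cx3cl1*, -0.18 to 0.36 for *Dcn*, -0.045 to 0.014 for *Grin2b*, -0.061 to 0.10 for *Hist1h4d*, -0.052 to 0.022 for *Kcnj3*, -0.022 to 0.031 for *Mbp*, -0.055 to 0.0024 for *Mtor*, -0.023 to 0.057 for *Ntrk2*, -0.10 to 0.033 for *Olig1*, -0.071 to 0.029 for *Pcsk2*, -0.034 to 0.038 for *Psme4*, -0.035 to 0.033 for *Rgs5*, -0.16 to 0.0043 for *Slc12a5*, -0.021 to 0.036 for *Sod2*, -0.0026 to 0.11 for *Stat2*, -0.043 to 0.017 for *Tsc1* and -0.028 to 0.068 for *Tsc2*. In fits of mice alike in *Xist*, chosen after seeing the data, 9 of 90 named genes that were not called had the other sign among the mice with *Xist*: -0.0065 for *Tsc2*, -0.033 for *Sod2*, -0.017 for *Ccnd1*, 0.16 for *Olig1*, -0.051 for *Kcnj3*, 0.99 for *Ttr*, -0.029 for *Dcn*, -0.18 for *Xist* and -0.025 for *Ncl*. Among the mice without *Xist* this was so for 28 of 91, among them -0.41 for *Arc*, -0.081 for *Ntrk2*, 0.035 for *Pcsk2*, -0.010 for *Sod2*, -0.025 for *Plk2*, 0.051 for *Sema5a*, -0.073 for *Slc17a7*, 0.10 for *Ccnd2*, -0.016 for *Ccnd1*, 0.030 for *Glul*, -0.053 for *Csf1r*, -0.15 for *Cx3cl1*, -0.026 for *Stat2*, -0.089 for *Ifi27*, -0.020 for *Pdgfra*, 0.092 for *Rgs5*, -0.0054 for *Flt1*, -0.046 for *Col4a2*, 0.036 for *Gria2*, 0.016 for *Nr3c1*, 0.0040 for *Trpm3*, 0.069 for *Alas2*, 0.10 for *Ddx3y*, -0.33 for *Hist1h4d*, -0.024 for *Hist1h1e*, 0.059 for *Psme4* and 0.066 for *Tsc1*.

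The positions by 200 genes differed by over 1.5 times with another choice for some day 6 mice. By the median, day 6 mouse A was at 0.062 and D at 0.018. By 100 genes, day 6 mouse D was at 0.041, and by 500 genes at 0.15. For the 4 day 8 mice, means over 100 or 500 genes and medians over 200 were within 1.5 times of the means over 200 genes.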
